A study of Homo sapiens with 6 samples.

Results

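Collagens and the enzymes that modify them were examined in cells labelled HepG2, an established human liver cancer line, after 24 h with polydatin (PD), a glucoside of resveratrol. The rule used gene names and no values, but it was set with earlier results of these data known. The genes were every collagen chain of the deposited table, plus 15 genes for lysyl oxidases, lysyl and prolyl hydroxylases, a collagen glycosyltransferase and collagen chaperones. They made up 52 of its 28563 genes, with 37 of the 44 annotated collagen chains and 15 of the 15 enzymes and chaperones. COL19A1, COL1A2, COL21A1, COL22A1, COL28A1, COL6A5 and COL9A1 were not analysed here, so neither the second chain of type I collagen nor some chains of types VI and IX could be described.

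The study compared 3 plates of cells that received PD at 336 µM, the dose of the sample labels, with 3 plates that received the solvent DMSO. All plates came from 1 cell line, had not reached full confluence when treatment began and were harvested after 24 h. The paper's text names a slightly lower dose of PD. Poly(A) RNA was sequenced, and expression was given as FPKM (fragments scaled by transcript length and by the total mapped), so levels can be compared between genes per length. The libraries held between 16308476 and 18071632 fragments, as worked back from the FPKM values. The plates were dishes of the same plating, assigned to the groups at random, so p-values measured only the spread between such dishes. Of the hepatocyte markers, CPS1 stood at 106 to 228 FPKM, while APOA1, HNF4A, SERPINA1 and TF stayed at or below 0.172 FPKM in every library, although HepG2 cells are known to express these genes. Of 7 epithelial markers in the table, 6 reached 1 FPKM (KRT7, KRT8, KRT18, CLDN4, CLDN7 and EPCAM), while CDH1 stayed at or below 0.145 FPKM. The list summed to 179 to 189 FPKM in DMSO and 165 to 174 FPKM in PD, but its members went opposite ways. By the limma test described below, 2 were called higher in PD and 2 lower. KRT8 and CLDN4 were higher in every PD library than in any DMSO library, and KRT7 and CLDN7 were lower. These values were not followed up, and the name HepG2 is used here only as the labels give it.

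A collagen molecule is a triple helix of 3 chains, and each chain is modified in the endoplasmic reticulum before the helix closes. Prolyl 4-hydroxylases stabilise the helix, prolyl 3-hydroxylases and lysyl hydroxylases modify further residues, a galactosyltransferase adds sugar to hydroxylysine, and the chaperone HSP47 (SERPINH1) binds the folded helix. Outside the cell, lysyl oxidases cross-link the fibres. In liver, most fibrillar collagen of scar tissue comes from stellate cells, while epithelial cells contribute to basement membranes built from type IV collagen.

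Most of the modifying enzymes were upregulated by PD, while the 4 most abundant chains were downregulated. Of the 32 members with a mean of at least 0.5 FPKM, 23 passed an adjusted p of 0.05 (limma on log2(FPKM + 1), Benjamini-Hochberg over 14400 genes), which is 71.9%, beside 58.1% of all genes tested. Among enzymes and chaperones, 10 of 15 were upregulated and 1 was downregulated, whereas 4 of 17 chains were upregulated and 8 were downregulated. With no minimum on FPKM, limma called 6 of 37 chains higher and 6 lower, beside 4460 higher and 3600 lower of all 28563 genes. The chains thus did not lean towards lower at that setting. With the minimum of 0.5 FPKM, 31.9% of all genes tested were upregulated and 26.2% were downregulated. The median log2 fold change was 0.25 for the enzymes and chaperones, −0.19 for the chains and 0.01 for all genes. By the upper quartile scaling, which places PD lower against DMSO, the counts over all genes turned from 4588 upregulated and 3780 downregulated to 3798 and 4675.

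Changes were small. With a further requirement of a 2-fold change, used here for a differentially expressed gene (DEG), limma called 0 of the 32 members, beside 3.61% of all genes tested (2.04% upregulated and 1.57% downregulated). At an unadjusted p under 0.05 and no fold requirement, it called 14 members higher and 9 lower, as it did at the adjusted threshold. A limma-voom fit on the recovered fragments called 4 members at 2-fold, PLOD1, P4HA2, COL6A2 and COL5A3, beside 11.5% of all genes. Without the fold requirement it called 7 of 23 chains and 10 of 15 enzymes higher, beside 34.3% of all genes, and 10 chains and 1 enzyme lower, beside 28.4% (62.7% in both directions). The libraries of the groups did not overlap in 65.4% of all genes tested. Among the 32 members, every PD library was above every DMSO library in 14 (35.6% of all genes) and below in 11 (29.9%), and the groups overlapped in 7.

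**Figure D1:**
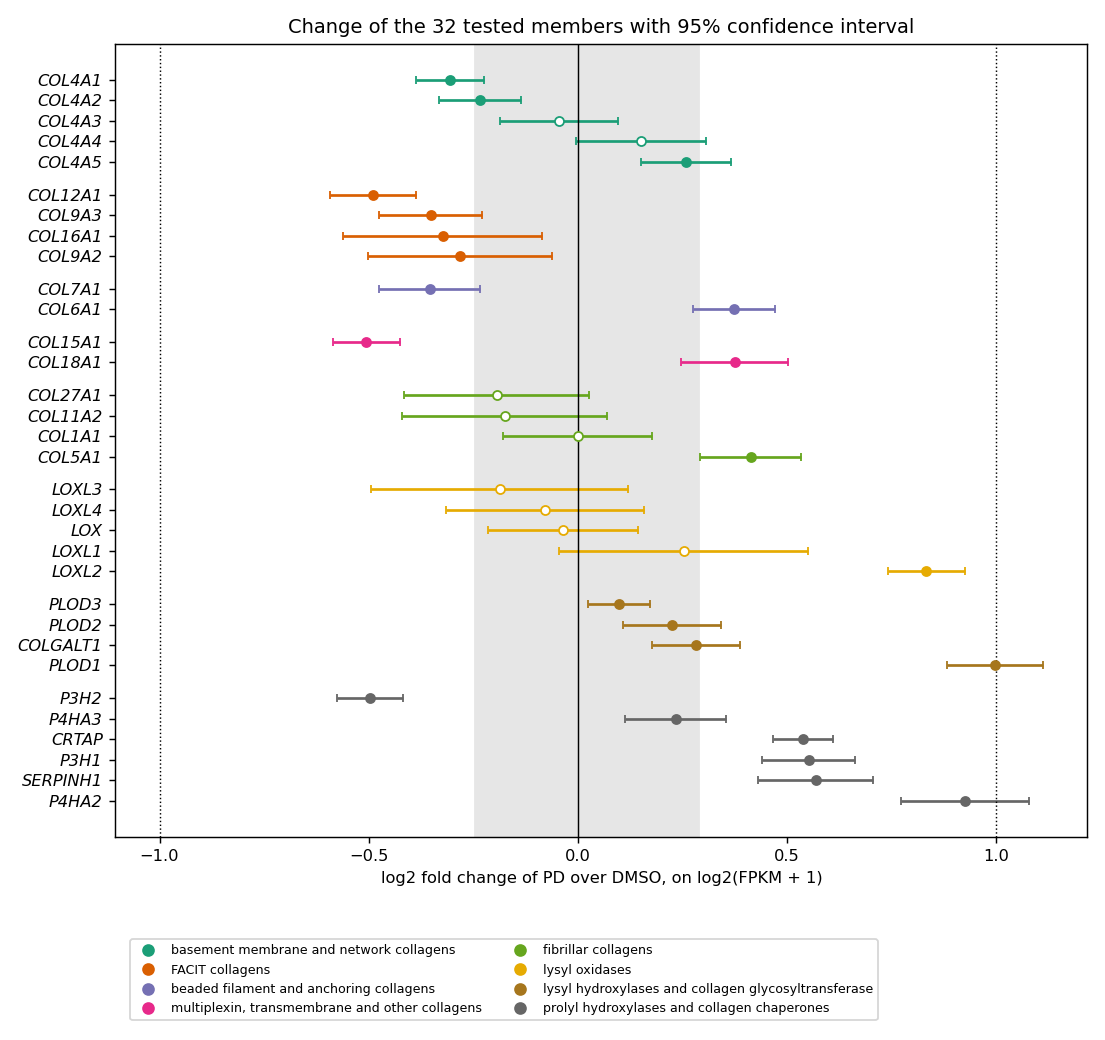
Log2 fold change of PD over DMSO on the log2(FPKM + 1) scale (x axis) for the 32 members with at least 0.5 FPKM (y axis), coloured by class, with bars for the 95% confidence interval, filled points where the adjusted p was 0.05 or less and dotted lines at 2-fold. The grey band runs from the 25th to the 75th percentile of all 14400 genes, from −0.25 to 0.29, and LOXL2, P4HA2 and PLOD1 lie far to its right while COL15A1, P3H2 and COL12A1 lie to its left.

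Lysyl hydroxylases convert lysine of the chains to hydroxylysine, which carries sugars and forms the more stable cross-links. PLOD1 (chr1:11934205-11975538, plus strand, hg38), which acts mainly on helical lysines, measured 19.2, 17.1 and 18.3 FPKM in DMSO and 36.1, 37.3 and 38.7 FPKM in PD, for replicates 1, 2 and 3 in that order, as throughout. The lowest PD library was well above the highest DMSO library. The mean of PLOD1 rose to 37.3 ± 1.33 FPKM from 18.2 ± 1.01 FPKM (SD, n = 3 in each group), a 2.05-fold ratio of the means and a log2 fold change of 1.00 ± 0.049 (SE, adjusted p = 6.6e-06, limma). Its fitted change lay just under 2-fold, and it passed 2-fold when DMSO replicate 1, DMSO replicate 3 or PD replicate 1 was left out (1.03, 1.00 and 1.02).

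PLOD2, which hydroxylates the telopeptide lysines, measured 4.85, 4.57 and 4.68 FPKM in DMSO and 5.75, 5.42 and 5.82 FPKM in PD. It rose by a log2 fold change of 0.23 ± 0.050 (adjusted p = 0.0065, limma), with no overlap between the groups. PLOD3, which also has glycosyltransferase activity, went from 37.2 ± 0.674 to 39.9 ± 0.703 FPKM (log2 fold change 0.10 ± 0.031, adjusted p = 0.028, limma). This was the smallest of the changes called. Its call was lost without DMSO replicate 2 (0.09, adjusted p = 0.086), PD replicate 1 (0.10, adjusted p = 0.066) or PD replicate 2 (0.09, adjusted p = 0.094) and under both other scalings, with a log2 fold change of 0.02 by the upper quartile. COLGALT1, the galactosyltransferase, was the most abundant of the enzymes and rose from 60.1 ± 3.50 to 73.3 ± 1.35 FPKM (log2 fold change 0.28 ± 0.045, adjusted p = 0.0012, limma).

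Prolyl 4-hydroxylase is a tetramer of catalytic alpha subunits and the beta subunit P4HB. P4HA2 (chr5:132190147-132295315, minus strand), a catalytic subunit, measured 3.75, 3.67 and 3.39 FPKM in DMSO and 7.26, 8.43 and 7.58 FPKM in PD. The groups were far apart for their spread. P4HA2 rose from 3.60 ± 0.190 to 7.76 ± 0.605 FPKM, with a 2.15-fold ratio of the means and a log2 fold change of 0.93 ± 0.066 (adjusted p = 2.8e-05, limma). At this low level the added 1 FPKM understated the change, which was 1.10 in the voom fit on fragments. P4HA3, a further catalytic subunit, measured 10.7, 11.2 and 11.9 FPKM in DMSO and 13.7, 13.7 and 12.9 FPKM in PD, and rose less (log2 fold change 0.23 ± 0.051, adjusted p = 0.0060, limma). The other parts of the enzyme moved the same way. P4HA1, the third catalytic subunit, rose to 19.4 ± 0.507 FPKM in PD, 1.29-fold its DMSO mean (0.35 ± 0.040, adjusted p = 0.00026, limma), and P4HB rose from 94.7 ± 2.90 to 185 ± 3.41 FPKM (0.96 ± 0.032, adjusted p = 2.6e-06, limma).

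Prolyl 3-hydroxylation in fibrillar chains is carried out by a complex of P3H1, CRTAP and the cyclophilin PPIB. P3H1 measured 6.74, 6.92 and 7.17 FPKM in DMSO and 10.3, 10.6 and 11.1 FPKM in PD. CRTAP measured 42.3, 42.6 and 43.9 FPKM in DMSO and 61.8, 64.1 and 62.5 FPKM in PD. PPIB measured 23.7, 22.3 and 23.2 FPKM in DMSO and 46.8, 43.8 and 47.7 FPKM in PD. PPIB shares 26.6% of its exon bases with SNX22 on the opposite strand, whose fragments it may hold. Each of the 3 partners was higher in every PD library than in any DMSO library. Their log2 fold changes were 0.55 ± 0.047 for P3H1 (adjusted p = 6.4e-05, limma), 0.54 ± 0.031 for CRTAP (adjusted p = 1.2e-05, limma) and 0.97 ± 0.043 for PPIB (adjusted p = 5.3e-06, limma).

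P3H2, the prolyl 3-hydroxylase that acts on type IV collagen, was the one modifying enzyme that fell. It measured 37.8, 39.5 and 38.5 FPKM in DMSO and 26.5, 27.2 and 27.6 FPKM in PD (chr3:189956728-190122437, minus strand). The groups did not overlap, and the log2 fold change was −0.50 ± 0.033 (adjusted p = 2.2e-05, limma). The collagen chaperone SERPINH1 measured 23.3, 24.1 and 27.4 FPKM in DMSO and 37.5, 37.5 and 37.2 FPKM in PD. It rose by a log2 fold change of 0.57 ± 0.059 (adjusted p = 0.00015, limma).

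Lysyl oxidases are copper enzymes that start the cross-linking of collagen and elastin outside the cell. LOXL2 (chr8:23296897-23425328, minus strand) was the most abundant of the 5, with 18.4, 19.0 and 19.6 FPKM in DMSO and 33.5, 35.5 and 35.0 FPKM in PD. It was the one member of the family that was called, with a mean that went from 19.0 ± 0.602 to 34.6 ± 1.04 FPKM and a log2 fold change of 0.83 ± 0.039 (adjusted p = 6.0e-06, limma). LOX, the founding member, measured 2.06, 2.07 and 1.75 FPKM in DMSO and 1.76, 1.92 and 1.98 FPKM in PD, and LOXL1 measured 1.70, 2.21 and 2.27 FPKM in DMSO and 2.19, 2.51 and 3.29 FPKM in PD. In both genes the groups overlapped. The 95% confidence interval of the log2 fold change ran from −0.21 to 0.14 for LOX and from −0.05 to 0.55 for LOXL1, the latter wide enough to include the change of CRTAP. LOXL3 and LOXL4 had means under 1 FPKM in both groups (0.765 and 0.884 FPKM in DMSO, 0.555 and 0.786 FPKM in PD) and were not called.

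**Figure D2:**
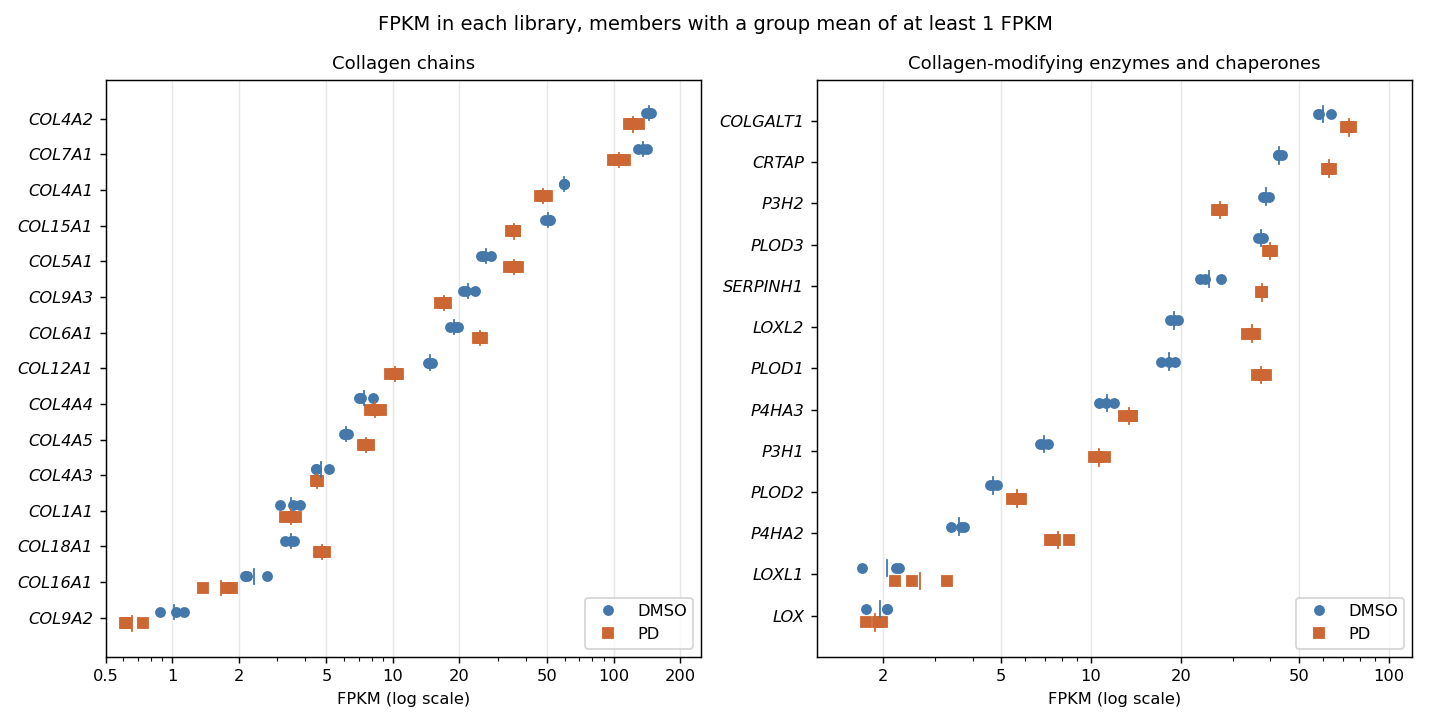
FPKM on a log scale (x axis) of the 28 members with a group mean of at least 1 FPKM, collagen chains on the left and enzymes and chaperones on the right, with 1 point per library (DMSO circles, PD squares) and a tick at each group mean. COL4A2 and COL7A1 lie above the other chains in every library, and PLOD1, P4HA2 and LOXL2 show the widest gaps between the groups among the enzymes.

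The collagen chains of these cells were mainly those of basement membranes and anchoring fibrils. COL4A2 and COL7A1 together gave 52.3 to 56.5% of the summed FPKM of the 37 chains, and with COL4A1 and COL15A1 they gave 71.7 to 77.8%. COL4A2 and COL4A1 form the common type IV network of basement membranes. COL4A2 measured 145, 140.1 and 147 FPKM in DMSO and 118, 129.7 and 121 FPKM in PD, and COL4A1 measured 59.4, 59.3 and 59.9 FPKM in DMSO and 46.3, 49.9 and 47.8 FPKM in PD. Both fell without overlap between the groups, by 0.23 ± 0.042 for COL4A2 (adjusted p = 0.0024, limma) and by 0.30 ± 0.035 for COL4A1 (adjusted p = 0.00024, limma) on the log2 scale.

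These 2 genes lie head to head on chromosome 13, with RefSeq starts 127 bases apart (GRCh38.p14), so that their promoters share most of their bases. COL4A3 and COL4A4, which encode chains of the network of specialised membranes such as the glomerular one, lie likewise on chromosome 2 with starts 419 bases apart. One window of each pair is shown because the first pair moved together while the second did not pass the test. The window of COL4A2 is chr13:110307034-110307333, plus strand, and shares 226 of its 300 bases with that of COL4A1. The window of COL4A3 is chr2:227164374-227164673, plus strand, and shares 82 bases with that of COL4A4. Capitals mark matches on either strand to GGGCGG, the core of the GC box, to ACGTG, the core of the hypoxia response element, and to TATAA, the core of the TATA box.
COL4A2: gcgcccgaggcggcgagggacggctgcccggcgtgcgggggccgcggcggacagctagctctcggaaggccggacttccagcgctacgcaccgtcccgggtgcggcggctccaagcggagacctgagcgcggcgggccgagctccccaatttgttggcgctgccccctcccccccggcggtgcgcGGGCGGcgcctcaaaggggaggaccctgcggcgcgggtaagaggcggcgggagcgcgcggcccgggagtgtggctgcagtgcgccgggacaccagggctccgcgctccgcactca
COL4A3: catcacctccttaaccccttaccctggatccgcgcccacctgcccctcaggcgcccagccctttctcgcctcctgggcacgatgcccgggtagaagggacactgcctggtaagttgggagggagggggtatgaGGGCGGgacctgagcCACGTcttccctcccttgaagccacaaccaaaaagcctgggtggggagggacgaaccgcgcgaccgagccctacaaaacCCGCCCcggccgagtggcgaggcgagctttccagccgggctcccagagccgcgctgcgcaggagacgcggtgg

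The COL4A2 window held 1 match to GGGCGG and none to the other motifs, and the COL4A3 window held 2 matches to GGGCGG and 1 to ACGTG. Their partner windows, not shown, differed from them. That of COL4A1 held 2 matches to GGGCGG and none to ACGTG, and that of COL4A4 held no match to any motif. None of these windows held TATAA. Of all 35116 promoter windows of this length, 45.0% held GGGCGG, 21.4% held ACGTG and 20.4% held TATAA. These matches are a description of letters in the windows and say nothing about a factor.

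COL4A3 measured 5.13, 4.48 and 4.50 FPKM in DMSO and 4.57, 4.46 and 4.51 FPKM in PD, and COL4A4 measured 7.15, 8.09 and 7.01 FPKM in DMSO and 8.27, 8.86 and 7.89 FPKM in PD. The groups overlapped for both genes. The log2 fold change was −0.05 ± 0.060 for COL4A3 (adjusted p = 0.54, limma) and 0.15 ± 0.066 for COL4A4 (adjusted p = 0.086, limma), and COL4A4 passed the threshold without DMSO replicate 2 (0.21, adjusted p = 0.029). COL4A5, a partner of COL4A3 and COL4A4 in the network, rose from 6.11 ± 0.118 to 7.52 ± 0.262 FPKM (0.26 ± 0.046, adjusted p = 0.0021, limma).

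The ratio of COL4A1 to COL4A2 was 0.406 to 0.423 in DMSO and 0.385 to 0.396 in PD. The groups did not overlap, and the log2 ratio differed by −0.07 (exact two-sided permutation p = 0.10, the smallest that 3 against 3 allows, adjusted p = 0.20 over 2 pairs of chains). For COL4A3 to COL4A4, the log2 ratio differed by −0.20 (exact two-sided permutation p = 0.20, adjusted p = 0.20). The other 5 pairs chosen for this comparison, such as COL1A1 with COL1A2 or COL6A1 with COL6A2, had a chain that was not analysed here or lay under 0.5 FPKM. COL9A2 with COL9A3, and COL4A5 with COL4A3 or COL4A4, were not among the pairs compared.

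COL7A1 (chr3:48564073-48595329, minus strand), the chain of the anchoring fibrils that fasten epithelium to the matrix beneath, measured 142, 129.6 and 136 FPKM in DMSO and 99.9, 112 and 106 FPKM in PD. It fell by 0.35 ± 0.051 on the log2 scale (adjusted p = 0.00080, limma). COL15A1, a multiplexin of basement membrane zones, measured 49.0, 51.3 and 50.8 FPKM in DMSO and 34.1, 35.8 and 35.7 FPKM in PD. It fell by 0.51 ± 0.034 on the log2 scale (adjusted p = 2.3e-05, limma). COL18A1, the other multiplexin and the precursor of endostatin, moved the opposite way, from 3.44 ± 0.162 to 4.76 ± 0.156 FPKM (0.38 ± 0.055, adjusted p = 0.00083, limma). Of its exon bases, 18.5% overlap those of SLC19A1 on the opposite strand, which measured 5.36 FPKM in DMSO and 5.48 FPKM in PD and was not called.

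FACIT collagens (fibril-associated collagens with interrupted triple helices) decorate the surface of fibrils. All 4 that were tested fell. COL12A1 measured 14.5, 14.5 and 15.1 FPKM in DMSO and 10.4, 9.72 and 10.5 FPKM in PD (−0.49 ± 0.044, adjusted p = 7.6e-05, limma). COL9A3 measured 21.5, 20.9 and 23.6 FPKM in DMSO and 16.4, 17.4 and 17.2 FPKM in PD (−0.35 ± 0.052, adjusted p = 0.00095, limma). The remaining pair were expressed at low levels and their calls were less stable. COL16A1 fell from 2.34 ± 0.301 to 1.67 ± 0.251 FPKM (−0.32 ± 0.101, adjusted p = 0.027, limma), and its call was lost without DMSO replicate 1 (−0.25, adjusted p = 0.084) or PD replicate 1 (−0.24, adjusted p = 0.075). COL9A2 fell from 1.02 ± 0.128 to 0.657 ± 0.0709 FPKM (−0.28 ± 0.094, adjusted p = 0.035, limma), and its call was lost without DMSO replicate 1, DMSO replicate 3, PD replicate 1 or PD replicate 2 (adjusted p = 0.11, 0.086, 0.088 and 0.091). Both calls were also lost when genes of every level were tested (adjusted p = 0.081 for COL16A1 and 0.061 for COL9A2, limma).

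Fibrillar collagens were a minor part of the chains. COL5A1, the type V chain that nucleates fibrils, was the most abundant of them, with 25.9, 25.2 and 28.0 FPKM in DMSO and 33.7, 36.9 and 35.6 FPKM in PD. It rose without overlap (0.41 ± 0.051, adjusted p = 0.00038, limma). COL1A1, the main chain of scar collagen, measured 3.53, 3.07 and 3.78 FPKM in DMSO and 3.24, 3.48 and 3.63 FPKM in PD. Its groups overlapped, its log2 fold change was −0.00 ± 0.076 and its 95% confidence interval ran from −0.18 to 0.18. COL11A2 and COL27A1 had means between 0.410 and 0.838 FPKM and were not called by limma, although both were lower in every PD library than in any DMSO library and passed in the voom fit (adjusted p = 0.035 and 0.0032). COL6A1, a chain of the beaded filaments of type VI, rose from 19.0 ± 0.824 to 24.9 ± 0.476 FPKM (0.37 ± 0.042, adjusted p = 0.00022, limma).

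The remaining 20 chains were under 0.5 FPKM and were not tested in the fit described above. They were COL14A1, COL20A1, COL10A1, COL4A6, COL8A1, COL8A2, COL6A2, COL6A3, COL6A6, COL11A1, COL24A1, COL2A1, COL3A1, COL5A2, COL5A3, COL13A1, COL17A1, COL23A1, COL25A1 and COL26A1. They reached at most 0.684 FPKM and 49 fragments in any library, 10 of them had under 10 fragments in every library, and 9 had no fragment in at least 1 library. A count of 0 allows up to 3 fragments, by counting error only. COL3A1, a further fibrillar collagen of scar tissue, had 1, 7 and 0 fragments in DMSO and none in any PD library, so its groups overlapped. The 2 chains that the voom fit called at 2-fold were COL6A2, with 6, 4 and 14 fragments in DMSO and 35, 49 and 45 in PD (log2 fold change 2.49, adjusted p = 7.3e-06, limma-voom), and COL5A3, with 3, 6 and 6 fragments in DMSO and 15, 22 and 32 in PD (2.05, adjusted p = 0.00039, limma-voom). Both were singled out after their values were seen, and both stayed under 0.6 FPKM in every library.

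The sum of FPKM over all 37 chains was 503 ± 11.9 in DMSO and 433 ± 17.8 in PD (n = 3 each). It fell by 13.9%. No test was made of these sums, whose members were chosen by name, and the libraries of the groups did not overlap in any class. The sum fell by 26.3% for FACIT collagens, by 25.3% for the multiplexin, transmembrane and other collagens, and by 15.1% for the beaded filament and anchoring collagens. For the basement membrane and network collagens it fell by 13.9%. Fibrillar collagens moved the other way, from 31.4 ± 1.67 to 40.2 ± 1.86 FPKM, and their share of the sum went from 6.10 to 6.49% in DMSO to 9.18 to 9.39% in PD. COL5A1 alone supplied most of this class, with 5.10 to 5.46% of the sum over all chains in DMSO and 8.12 to 8.22% in PD. COL6A1, COL18A1 and COL4A5 rose inside classes whose sums were lower in PD, whereas the 4 FACIT chains that were tested fell together.

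**Figure D3:**
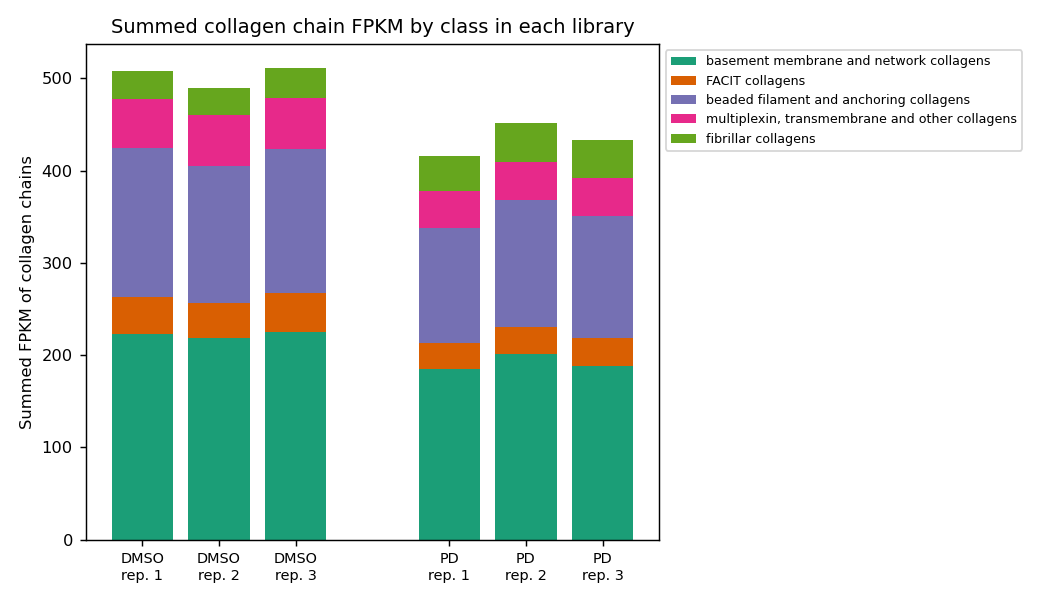
Summed FPKM of the collagen chains (y axis, from 0) in each of the 6 libraries (x axis), stacked by class. The 3 PD bars reach 416 to 451 FPKM and the 3 DMSO bars 489.6 to 512 FPKM, while the fibrillar segment is taller in each PD bar than in any DMSO bar.

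Genes that fold, secrete, process or sense collagen were examined beside the members. Of 70 listed genes 68 were in the table, 49 were tested, 24 were upregulated, 11 were downregulated and 14 were not called, beside 31.9% upregulated and 26.2% downregulated over all genes tested. Their log2 fold changes had a median of 0.18. Of the genes for folding in the endoplasmic reticulum, 11 of 13 rose and 0 fell at the adjusted threshold by limma, and the lowest log2 fold change in the group was 0.08. CALR, the chaperone calreticulin, was a DEG and rose from 136 ± 3.90 to 306 ± 4.56 FPKM (1.16 ± 0.030, adjusted p = 1.4e-06, limma), with 9.64% of its exon bases shared with a gene on the opposite strand. Many genes of this group fold other secreted proteins as well. Of the genes for secretion, 5 of 12 rose and 2 fell, and of those for extracellular processing and turnover, 5 of 7 rose and 1 fell. The gene that fell in the latter was TLL1, a procollagen C-proteinase, which measured 4.79, 4.89 and 4.78 FPKM in DMSO and 1.89, 1.66 and 1.43 FPKM in PD and was a DEG (−1.13 ± 0.075, adjusted p = 2.1e-05, limma). BMP1, another procollagen C-proteinase, singled out after its values were seen, was more abundant and went the other way. It rose from 13.0 ± 0.853 to 17.0 ± 0.596 FPKM (0.36 ± 0.054, adjusted p = 0.00089, limma), with 6.52% of its exon bases shared with a gene on the same strand.

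Among collagen receptors, 2 of 5 rose and 1 fell. Counts of this size in the secretion genes and the receptors lie near the shares over all genes tested. ITGA2, the alpha chain of a collagen-binding integrin, was a DEG and rose from 3.02 ± 0.126 to 7.31 ± 0.467 FPKM (1.04 ± 0.060, adjusted p = 1.2e-05, limma). Of the TGF-beta and CCN genes, which act upstream of collagen transcription in fibrosis, 7 of 12 fell and 1 rose. The gene that rose was TGFB1, one of the ligands, with 7.88, 7.55 and 7.76 FPKM in DMSO and 20.4, 20.1 and 24.0 FPKM in PD (1.36 ± 0.068, adjusted p = 6.9e-06, limma), although 6.59% of its exon bases overlap HNRNPUL1 on the opposite strand. CCN1, a matricellular protein, measured 86.7, 69.1 and 70.5 FPKM in DMSO and 28.7, 32.8 and 30.5 FPKM in PD and was a DEG (−1.26 ± 0.091, adjusted p = 2.9e-05, limma). The groups did not overlap for either gene. Other genes of the same kinds differed from these: the ligand TGFB2, singled out after its values were seen, fell from 1.79 ± 0.147 to 1.03 ± 0.0183 FPKM (−0.46 ± 0.076, adjusted p = 0.0016, limma), and CCN2 was not called (0.19 ± 0.111).

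**Figure D4:**
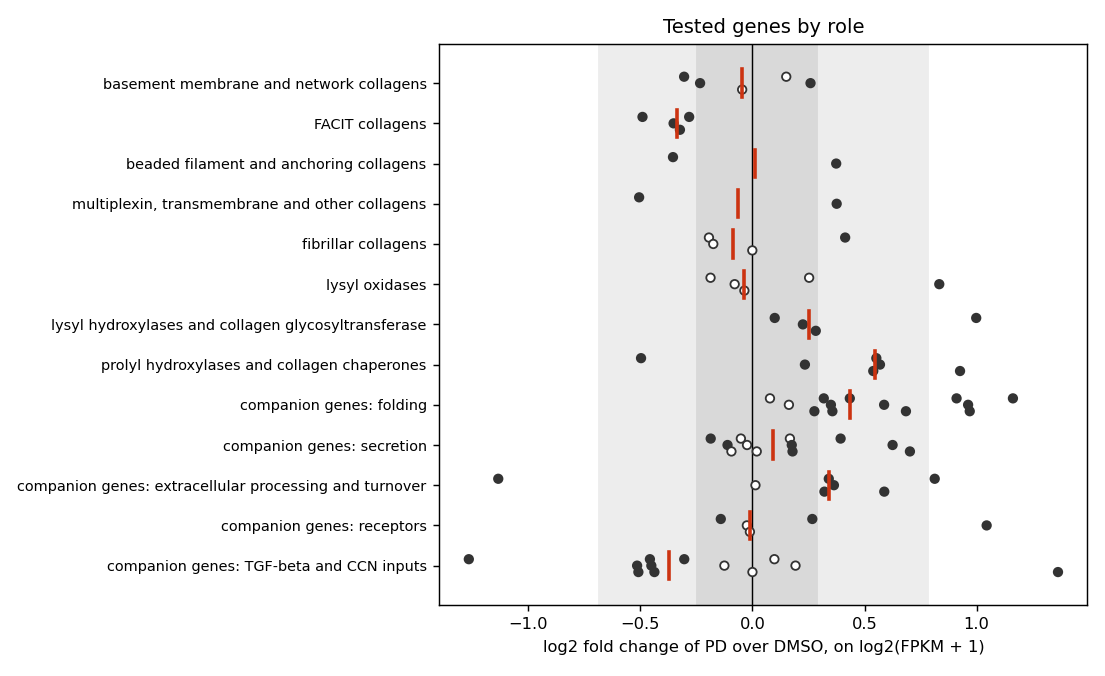
Log2 fold change of PD over DMSO on the log2(FPKM + 1) scale (x axis) of the 32 tested members and 49 tested companion genes by role (y axis), with filled points where the adjusted p was 0.05 or less and a red bar at each role's median. The inner and outer grey bands run from the 25th to the 75th and from the 5th to the 95th percentile of all 14400 genes (−0.25 to 0.29 and −0.68 to 0.78), and the folding genes and prolyl hydroxylases and chaperones lie mostly to the right of 0 while FACIT collagens lie to its left.

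Markers of other cells were examined because fibroblasts and stellate cells make collagen. In bulk RNA, fewer cells of a type and less RNA per cell cannot be told apart. Of 10 fibroblast and stellate cell markers in the table, 5 reached 1 FPKM in a library, and their list summed to 104 to 116 FPKM in DMSO and 115 to 120 FPKM in PD. Most of that sum was FBLN1, at 79.1 to 92.0 FPKM and not called. Of the 5 markers tested, 2 were called higher in PD and 0 lower by limma, namely VIM, at 20.3 to 21.4 FPKM in DMSO and 28.8 to 30.0 FPKM in PD, and ACTA2, at 0.432 to 0.584 FPKM in DMSO and 0.901 to 1.195 FPKM in PD. Both moved with the groups, and their part in the collagen results was not tested. On the opposite strand, ACTA2 shares 29.1% of its exon bases with ACTA2-AS1, and VIM shares 12.7% with VIM-AS1, whose fragments they may hold. ACTA2 held 22 to 58 fragments per library. The markers DCN, THY1, FAP, DES and RGS5 stayed under 0.54 FPKM. None of 7 endothelial and none of 4 leukocyte markers reached 1 FPKM. Of 20 listed hepatocyte markers, 9 were in the table and 2 were tested, of which 1 was called lower in PD (CPS1) and 1 higher (RBP4). The listed markers ALB, AFP, APOA2, APOB, APOC3, APOH, TTR, FGB, AHSG, HP and FOXA2 were not among the rows used, for a reason not examined. The list, nearly all CPS1, summed to 222 to 229 FPKM in DMSO and 107 to 113 FPKM in PD. RBP4 measured 0.323 to 0.479 FPKM in DMSO and 1.06 to 1.73 FPKM in PD. The part of these changes in the collagen results was not tested.

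Exons of 16 of the 28 members with a group mean of at least 1 FPKM overlap another annotated gene, and 5 do so over at least 5% of their bases (COL18A1, COL4A3, LOXL1, P4HA2 and P4HA3). The strand setting of the counting was not given in the sources used here, so these values can hold fragments of the overlapping gene. P4HA2 shares 5.41% of its exon bases with its antisense gene P4HA2-AS1, which averaged 0.0230 FPKM in DMSO and 0 in PD. LOXL1 shares 9.21% with LOXL1-AS1 on the opposite strand, which averaged 3.07 FPKM in DMSO and 3.67 FPKM in PD. This was above LOXL1 itself, at 2.06 and 2.66 FPKM.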

How the data were processed

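RNA-seq was available for 6 samples of HepG2 cells, 3 with PD and 3 with DMSO, grouped by their sample titles. The authors sequenced poly(A) libraries as paired ends, aligned the reads to hg38 with HISAT2, counted them per gene with HTSeq (v0.6.0) and deposited FPKM values, the unit used here. No value column was left out. Gene symbols, positions and exon overlaps came from GENCODE 44, and promoter windows from RefSeq tables (GRCh38.p14). Protein sequences were not used here.

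The test was limma (v3.58.1, R v4.3.3) on log2(FPKM + 1) with a trended variance, for genes whose mean reached 0.5 FPKM, and p-values were adjusted by Benjamini-Hochberg over 14400 genes. A gene was called if its adjusted p was 0.05 or less, and was a DEG if it also changed at least 2-fold. Fold changes were taken on the log2(FPKM + 1) scale unless named as a ratio of means, a voom value or a ratio of sums, and the pseudocount shrinks the change of low genes. Errors are SD for means and SE for fold changes. Members with at least 1 FPKM in a group are named with values, the others by name, range and count, and companion genes where they were DEGs, plus P4HA1, P4HB and PPIB. BMP1, TGFB2 and CCN2 were added beside DEGs of the same kind. Ratios of chains were compared by an exact permutation test (scipy v1.17.1).

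FPKM values are multiples of what 1 fragment is worth, and fragments were worked back from these steps, which served the voom fit and the depth. The members named with values held 45 to 27187 fragments per library. Within-group pairs of libraries differed by a chi-square of 2.22 to 3.55 per gene, so no library was a copy of another. Simulated data for this comparison were used to test limma, which called 102 of 102 genes changed 2.5-fold, 90 of 98 changed 1.5-fold, and 9 unchanged genes among 14457 tested. The genes changed in the simulation had at least 5 FPKM, so recovery below that level was not measured. Only 200 genes were changed, at a dispersion set to 0.003, whereas 58.1% of genes were called in the data. Changes under 1.5-fold were not simulated, so the reliability of calls of that size was not measured. The alternatives were another pseudocount, other FPKM minimums, 2 other scalings, a replicate block, leaving out each replicate, voom and a test beyond 2-fold. The genes and lists were chosen with earlier results of these data known.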

Additional observations from a re-analysis of the deposited data

How the results depend on the processing

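Of the 32 members tested, 23 kept their call and direction under every alternative in which they were tested other than the test beyond 2-fold. That test called 0 chains and 0 enzymes, beside 101 of all 14400 genes (68 higher and 33 lower). At an unadjusted p under 0.05 it also called 0 chains and 0 enzymes. Of the 23 members, LOXL3 and LOXL4 were not tested at a minimum of 1 FPKM. The exceptions were COL11A2, COL16A1, COL1A1, COL27A1, COL4A3, COL4A4, COL9A2, LOXL1 and PLOD3. COL1A1 and COL4A3 changed sign near 0, with COL1A1 at 0.00012 under a pseudocount of 0.1 and between −0.064 and 0.051 when 1 replicate was left out, where COL4A3 ran from −0.073 to 0.0072. The number of enzymes upregulated at least 2-fold was 0 as reported, 2 under a pseudocount of 0.1, 2 under voom and 0 to 1 when 1 replicate was left out. Over all genes, DEGs in both directions numbered 520 of 14400 as reported, 1248 of 14400 under a pseudocount of 0.1 and 1733 of 15066 under voom. Under voom, 7 chains were upregulated, of which 2 at 2-fold. The test for changes beyond 2-fold left 0 of 49 companion genes higher and 0 lower, against 3 and 2 as DEGs. Over all genes tested, 2.04% were DEGs higher in PD and 1.57% lower. The upper quartile scaling moved the log2 ratio of the summed FPKM of PD over DMSO to −0.53 for FACIT, −0.30 for basement membrane and network, −0.32 for beaded filament and anchoring, 0.27 for fibrillar, −0.51 for multiplexin, transmembrane and other collagens and −0.30 for all chains. The causes were not tested.

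Replicates with the same number did not deviate together, with correlations of −0.03, −0.00 and 0.09, so the numbers do not pair the samples. With the replicate number as a block, 8032 genes were called against 8368, and 5 chains were higher and 6 lower, while 10 enzymes were higher and 1 lower. LOXL1 and COL4A4 passed under the block (adjusted p = 0.046 and 0.039, limma), and COL16A1, COL9A2 and PLOD3 did not (adjusted p = 0.068, 0.063 and 0.063, limma).

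With 3 plates a group, no permutation of one value can go below 0.10. Chains under 0.5 FPKM were too shallow for a fold change on the FPKM scale, and a change in them was not detectable at this depth unless large.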
